A study of Mus musculus with 33 samples.

Results

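Wild-type E14Tg2a embryonic stem cells were compared at the 2 ends of an embryoid body course: 3 libraries of undifferentiated cells (day 0) and 3 libraries of day 8, chosen by line and day from the 33 libraries of the series. E14Tg2a is a mouse line of strain 129/Ola and is wild type here, with no engineered allele at either end. Day 0 cells grew on gelatine with serum and leukaemia inhibitory factor (LIF), the cytokine that sustains self-renewal. Day 8 cells had been cultured in serum without LIF, first as floating aggregates and then replated on gelatine, so each day 8 library is a mixture of cell types from 1 line. Days 4 and 6 of the same line, with 3 and 2 libraries, and days 0 and 8 of 2 clones that lack the H3K9me3-marked stretch upstream of *Nanog* (dK9.1 and dK9.2, 3 libraries per clone and day) served as side values only. The study made these 3 replicates in independent assays. The table lists 16336 genes in TPM, a level corrected for transcript length and scaled to the same total in each library. Differences are day 8 minus day 0 on log2(TPM + 1), with a standard error (SE) and a Benjamini-Hochberg adjusted p from limma over all genes listed.

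Embryoid bodies are aggregates of stem cells that, once LIF is withdrawn, leave pluripotency and form derivatives of several germ layers without an imposed body plan. Pluripotency is held by a network around *Pou5f1*, *Sox2* and *Nanog*. As it is dismantled, epiblast-like cells pass through a primitive streak-like state that yields mesoderm, the source of blood, vessels, heart and connective tissue, while an outer layer takes on extra-embryonic endoderm features and secretes serum proteins and basement membrane.

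Of the 16336 genes, 2594 were higher and 1794 were lower on day 8, with an adjusted p under 0.05 and a log2 difference beyond 1 (15.9% and 11% of the genes tested). The day 8 libraries lay wholly above the day 0 libraries for 2560 of the genes called higher and wholly below for 1764 of those called lower. The tail of gains was longer, with 354 genes called beyond a log2 difference of 3 upwards and 200 downwards, while the median over all genes was 0.05. Of the genes called higher, 933 averaged under 1 TPM on day 0, and 763 of those called lower averaged under 1 TPM on day 8. Genes called higher made up 2.86% of the listed TPM on day 0 and 12.2% on day 8, and genes called lower 8.06% and 2.11%. In such bulk libraries, more cells of a type and more RNA per cell cannot be told apart.

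**Figure D1:**
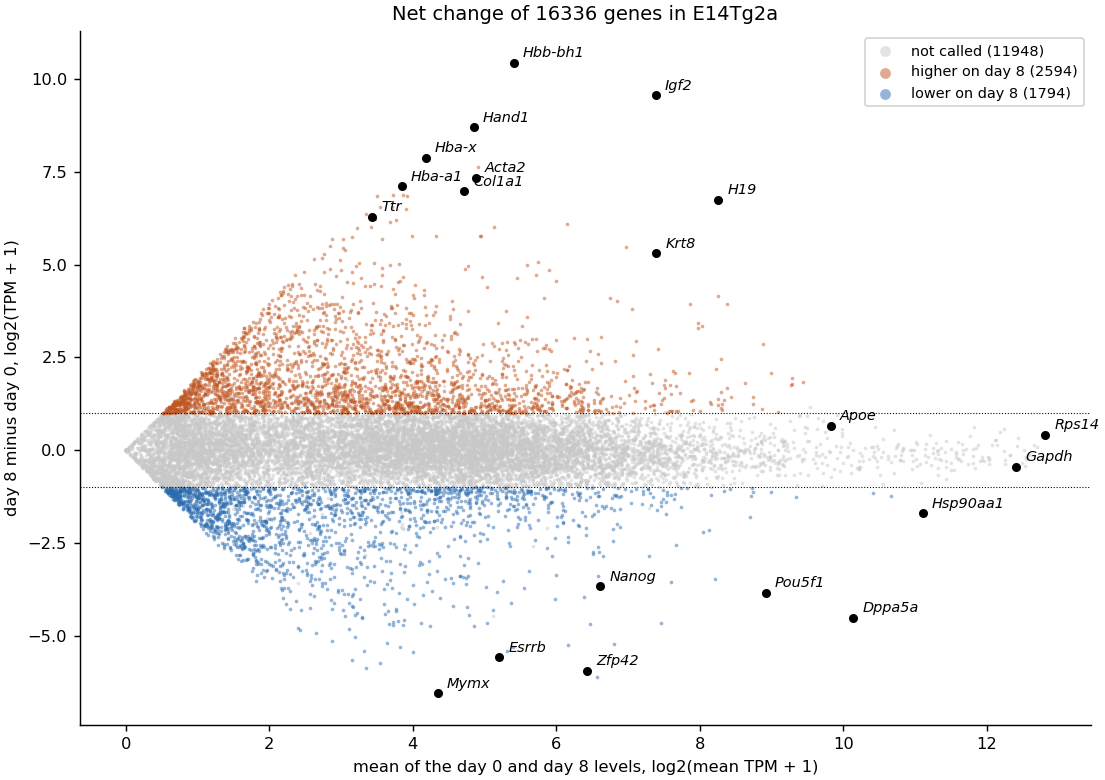
Each point is 1 of 16336 genes, placed by the mean of its day 0 and day 8 levels (x axis, log2 of mean TPM + 1) and its day 8 minus day 0 difference (y axis, log2 of TPM + 1), with dotted lines at the threshold of 1 in each direction. The 2594 genes called higher reach 10.43 (*Hbb-bh1*), the 1794 called lower reach −6.54 (*Mymx*), and the most abundant transcripts at the right lie close to 0, with *Dppa5a*, *Pou5f1* and *Hsp90aa1* well below it.

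Libraries of a day were not equal. Day 0 replicate 1 held more RNA of endoderm genes: of the 49 genes of the 4 endoderm lists detected on day 0, 43 were highest there. Their summed level was 2513 TPM in replicate 1, 1343 TPM in replicate 2 and 1294 TPM in replicate 3. That library also had the most genes at 1 TPM or more (13905, against 13387 and 13262). Its summed pluripotency level was the highest too (11639, against 10560 and 10919 TPM), while the mesenchyme sum was highest in replicate 2 (281, 302 and 245 TPM). Day 8 replicate 2 had the highest level of 12 of 13 blood genes and 16 of 17 mesenchyme genes, and day 8 replicate 1 that of all 15 primitive streak genes. What set these libraries apart was not tested. Counts that leaving out 1 library moved by over 1.5 times are given beside the gene groups concerned.

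Of all genes called, an embryonic globin had the largest gain. *Hbb-bh1*, the embryonic beta-like globin at chr7:103841637-103843164 (mm10), was listed at 0 in the 3 day 0 libraries and reached 809, 3735 and 866 TPM on day 8 (log2 difference 10.43, SE 1.18, adjusted p = 4.4e-08). *Hba-x*, the embryonic alpha-like globin at chr11:32276400-32278116, was likewise listed at 0 on day 0 and stood at 169, 717 and 104 TPM on day 8 (7.87, SE 1.05, adjusted p = 5.9e-07). The day 8 libraries lay far above day 0 for both, with replicate 2 over 4 times the others. *Hba-a1*, an adult alpha globin with a near-identical neighbouring copy that can share its reads, was at 0, 0.375 and 0 TPM and then at 141, 332 and 74.4 TPM (7.10, SE 0.90). Without day 8 replicate 2, *Hbb-bh1* still rose by 9.71 (adjusted p = 1.2e-06).

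The other 9 of the 12 largest gains were not globins. *Igf2*, a foetal growth factor and imprinted gene at chr7:142650766-142666816, went from 13.5, 1.28 and 3.07 TPM to 3241, 5583 and 3197 TPM (9.56, SE 0.63, adjusted p = 7.5e-12). *Hand1*, a transcription factor of lateral mesoderm, heart and extra-embryonic tissue at chr11:57828705-57832818, went from 0.789, 0.419 and 0.0763 TPM to 504, 589.5 and 653 TPM (8.70, SE 0.51, adjusted p = 1.2e-12). *Pmp22*, a tetraspan membrane protein best known from myelin, went from 2.27, 0.651 and 0.654 TPM to 356, 477 and 394 TPM (7.62, SE 0.40, adjusted p = 1.9e-13). In each of these 3 genes the spread among day 8 libraries was small beside the gap between days, and day 0 replicate 1 was the highest of its day in all 3.

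*Acta2*, smooth muscle actin, rose from 3.66, 0.265 and 0.272 TPM to 193, 620.0 and 263 TPM (7.34, SE 0.60). *Col1a1*, a chain of fibrillar collagen, rose from 3.04, 0.474 and 0.567 TPM to 197, 488 and 192 TPM (6.98, SE 0.42). Both were highest in replicate 1 on day 0 and in replicate 2 on day 8. *Msx1*, a homeobox factor of mesenchyme, rose to 157, 138 and 133 TPM (6.87, SE 0.49), and *Igfbp5*, which binds insulin-like growth factors, to 101, 295 and 102 TPM (6.86, SE 0.57). *Hand2*, the paralogue of *Hand1*, reached 76.3, 191 and 107 TPM (6.85, SE 0.52) and *Capn6*, a calpain family protein, 172, 165 and 138 TPM (6.84, SE 0.47). These 4 genes averaged under 0.5 TPM on day 0.

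**Figure D2:**
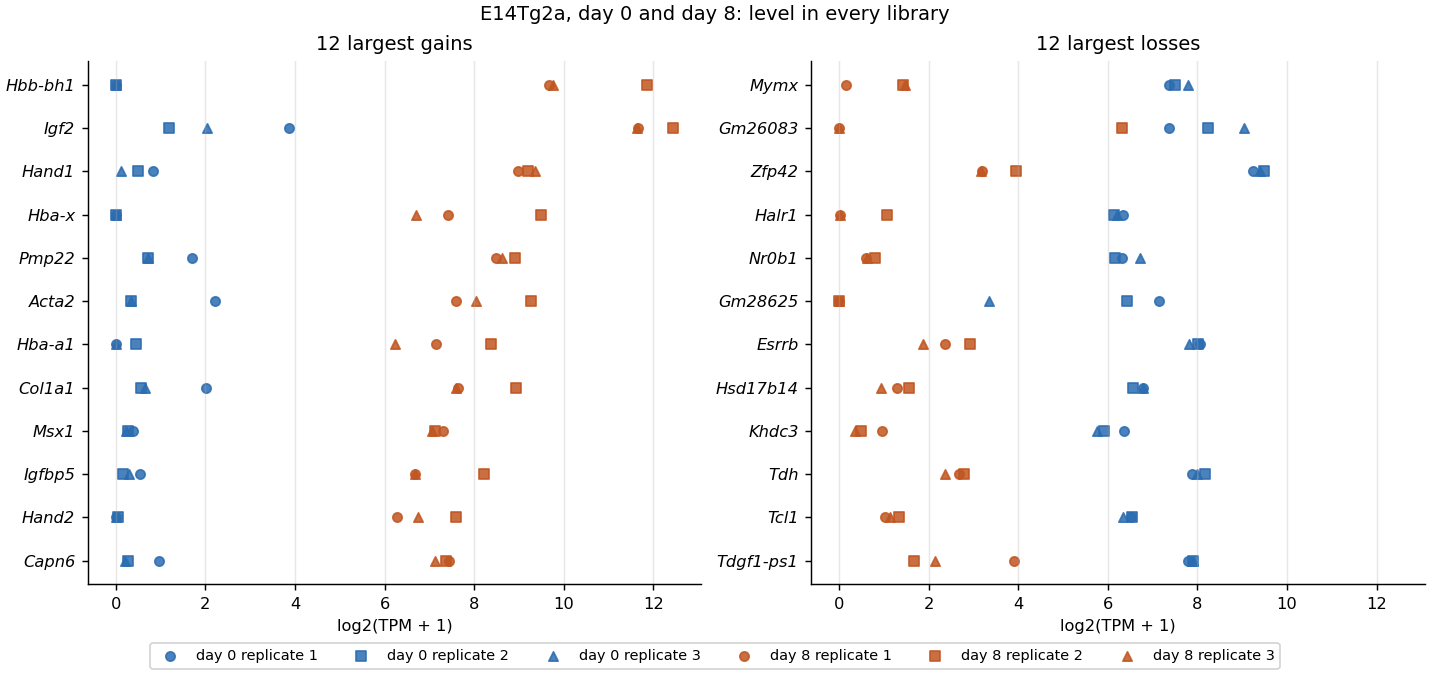
Level of the 12 genes with the largest gain and the 12 with the largest loss (y axis) in each of the 6 libraries (x axis, log2 of TPM + 1); colour marks the day and shape the replicate. Day 0 and day 8 libraries do not overlap for any of the 24 genes, which the choice of genes required, and the globins and matrix genes show day 8 replicate 2 apart to the right.

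The blood list as a whole moved upwards: 12 of 13 genes rose, with a median log2 difference of 3.16. *Spi1*, the factor of myeloid cells, was the exception, with 0.657, 0.408 and 0.447 TPM on day 0 and 0.535, 2.09 and 0.684 TPM on day 8. Erythroid genes rose together with the globins. *Alas2*, the erythroid enzyme that starts haem synthesis, averaged 0.27 TPM on day 0 and reached 4.67, 24.4 and 9.03 TPM (3.16, SE 0.54). Factors of the same list rose too, *Gata1* by 2.16 (SE 0.48), *Klf1* by 2.32 (SE 0.46), *Tal1* by 3.04 (SE 0.46) and *Lmo2* by 3.82 (SE 0.53). The summed blood level, 8.16 to 11.2 TPM on day 0, came to 1236, 5104 and 1120 TPM on day 8, of which the 4 globins *Hbb-bh1*, *Hba-x*, *Hba-a1* and *Hbb-y* made up 1149, 4929 and 1053 TPM.

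The 250 bases upstream of 3 of these globin genes are given because the genes moved together, from RefSeq's start sites on GRCm38.p6 and 5′ to 3′ on the gene's strand. Capitals mark matches on either strand to letter runs of known promoter elements. These are CCACCC, to which erythroid Krüppel-like factors can bind, the common CCAAT box, and the TATA box, searched as TATAAA. A site for GATA factors was searched in 4 forms, as AGATAA and as AGATAG, each also with T in place of the leading A. All forms but AGATAA were added after these sequences were seen. The windows are chr11:32276350-32276599 (plus strand) for *Hba-x*, chr7:103853208-103853457 (minus strand) for *Hbb-y* and chr11:32283422-32283671 (plus strand) for *Hba-a1*. The GENCODE positions of *Hba-x* and *Hba-a1* start earlier than RefSeq's, at 32276400 and 32283511, so their windows lie partly within them. Distances are counted from RefSeq's starts.
Hba-x: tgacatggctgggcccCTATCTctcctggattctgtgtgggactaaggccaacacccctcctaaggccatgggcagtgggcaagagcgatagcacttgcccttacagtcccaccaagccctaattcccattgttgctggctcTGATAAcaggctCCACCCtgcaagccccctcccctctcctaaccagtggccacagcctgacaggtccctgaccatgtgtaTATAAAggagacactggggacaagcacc
Hbb-y: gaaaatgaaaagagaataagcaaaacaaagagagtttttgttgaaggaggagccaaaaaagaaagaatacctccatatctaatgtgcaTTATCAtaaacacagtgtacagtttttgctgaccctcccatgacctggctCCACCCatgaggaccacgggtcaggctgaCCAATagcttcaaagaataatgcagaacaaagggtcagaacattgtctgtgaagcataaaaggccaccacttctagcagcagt
Hba-a1: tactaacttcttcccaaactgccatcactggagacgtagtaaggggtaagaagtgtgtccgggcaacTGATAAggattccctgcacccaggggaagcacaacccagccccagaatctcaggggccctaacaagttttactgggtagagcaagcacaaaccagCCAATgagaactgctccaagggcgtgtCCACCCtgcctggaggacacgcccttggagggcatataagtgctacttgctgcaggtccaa

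CCACCC lay 96 to 91 bases before the start of *Hba-x*, 112 to 107 before that of *Hbb-y* and 61 to 56 before that of *Hba-a1*. The CCAAT box lay upstream of *Hbb-y* and *Hba-a1*, the TATA box letters upstream of *Hba-x*, and no marked runs overlapped. A GATA form lay 108 to 103 and 234 to 229 bases before the start of *Hba-x*, 162 to 157 before that of *Hbb-y* and 183 to 178 before that of *Hba-a1*, none of these being AGATAA. Over all 27025 promoters of the table, CCACCC was held by 27.7%, the CCAAT box by 34.5%, the TATA box letters by 13.0% and at least 1 of the GATA forms by 27.1%. A GATA form was held by 17.0% of the promoters of genes tested and by 17.0% of those of genes called higher. CCACCC was held by 33.7% of the promoters of genes tested, 40.6% of those of genes called higher and 66.7% of those of the heart muscle list. Of the blood genes, 9 of 13 had an entry, and CCACCC was found in 5 of these 9, those of *Gata1*, *Hba-x*, *Hba-a1*, *Hbb-y* and *Alas2*.

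Endothelial genes rose alongside, 11 of 12 with a median of 2.60. *Kdr*, the VEGF receptor of early vessels and their precursors, went from 1.22, 0.309 and 0.0545 TPM to 43.4, 42.6 and 26.1 TPM (4.69, SE 0.51, adjusted p = 2.5e-08). *Cdh5*, the cadherin of endothelial junctions, reached 12.4, 30.8 and 7.68 TPM (3.63, SE 0.53), and *Flt1*, a further VEGF receptor, 18.4, 15.2 and 12.2 TPM (3.33, SE 0.32). *Egfl7*, the most abundant of the list, was already at 39.8 to 56.8 TPM on day 0 and rose by 1.34 (SE 0.25). *Pecam1*, an adhesion molecule of endothelium that stem cells also carry, stood at 42.1, 37.4 and 28.8 TPM and then at 21.5, 30.2 and 20.1 TPM, which overlap.

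All 17 listed genes of mesenchyme and fibrillar matrix rose, with a median of 3.17. *Postn*, a matrix protein of connective tissue, was at 0.11, 0 and 0 TPM and then at 35.4, 397 and 60.1 TPM (6.53, SE 0.64), and *Col3a1*, a fibrillar collagen, reached 30.3, 549 and 49.7 TPM (6.49, SE 0.74). Day 8 replicate 2 held most of this RNA. Without it the differences were 5.51 for *Postn* and 5.23 for *Col3a1*, both still called, and 15 of the 17 genes were called: *Dcn*, the proteoglycan decorin, differed by 0.84 and *Fn1*, fibronectin, by 0.85. *Vim*, the intermediate filament of mesenchyme and the most abundant member, was more even, going from 71.1, 85.5 and 79.3 TPM to 610.4, 1030 and 729.9 TPM (3.28, SE 0.36).

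Of 20 heart muscle genes listed, which include transcription factors such as *Hand1* and *Hand2* beside contractile genes, 16 rose (median 2.83). *Tnnc1*, a calcium sensor of slow and cardiac muscle, went from 1.41, 0.419 and 1.78 TPM to 41.4, 58.3 and 120.4 TPM (4.99, SE 0.40, adjusted p = 1.9e-10). Among genes chosen after their values were seen, *Tnni1* reached 23.1, 92.5 and 91.8 TPM and *Tnnt2* 6.69, 17.5 and 34.5 TPM, both called. Of the 6 myosin genes listed, *Myl3* (3.19, SE 0.50), *Myl4* (1.5, SE 0.36), *Myh7* (1.31, SE 0.31) and *Myl7* (1.13, SE 0.27, and 0.79 without day 8 replicate 3, when it was not called) rose, and *Myh6* (0.08, SE 0.41) and *Myl2* (−0.12, SE 0.40) were not called. The other genes not called were the troponin *Tnni3* (−0.59, SE 0.27) and the calcium channel *Ryr2* (0.32, SE 0.24). Day 8 replicate 3 was the highest for 12 of the 20 heart genes. Of 8 smooth muscle genes, 6 rose (median 1.53), and 4 without day 8 replicate 2, where *Actg2* differed by 0.72 and *Des* by 0.89. *Tagln*, an actin-binding protein, went from 29.7, 2.54 and 1.11 TPM to 190.2, 209 and 178 TPM (4.98, SE 0.68), with day 0 replicate 1 above the other day 0 libraries, and *Myl9*, a myosin light chain, rose by 3.95 (SE 0.40).

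Imprinted genes, expressed from 1 parental copy and often active in foetal growth, had the highest list median, 3.74, with 16 of 17 called higher. *H19*, the noncoding partner of *Igf2* at chr7:142575529-142578143, went from 71.5, 12.6 and 12.4 TPM to 4734, 1757 and 1958 TPM (6.75, SE 1.0, adjusted p = 2.6e-06). The 2 genes differed in where they peaked among day 8 libraries: *H19* was highest in replicate 1, and *Igf2* in replicate 2. *Dlk1*, a Notch-like membrane protein, reached 149, 483 and 253 TPM from at most 3.84 TPM (6.00, SE 0.47). *Snrpn* alone was not called, at 112, 77.7 and 72.0 TPM on day 0 and 180.2, 146 and 132 TPM on day 8 (0.82, SE 0.21). Summed, the list held 727 to 1049 TPM on day 0 and 9523 to 14366 TPM on day 8.

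Genes of trunk and limb patterning rose in 9 of 13 cases (median 2.74). *Hoxb2*, a homeobox gene of the hindbrain and trunk, was listed at 0 on day 0 and stood at 18.4, 18 and 24 TPM on day 8 (4.39, SE 0.36, adjusted p = 2.0e-10), and *Hoxb6* reached 28.8, 15.5 and 11.8 TPM (4.18, SE 0.57). *Meis2*, a homeobox cofactor of HOX proteins, rose as well, from 1.73, 0.971 and 1.41 TPM to 28, 44.1 and 23.7 TPM (3.76, SE 0.37). Of the other 6 *Hox* genes listed, 4 rose, and *Hoxa5* (0.94, SE 0.30) and *Hoxb9* (0.93, SE 0.53) were not called.

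Epithelial genes moved in both directions. *Krt8* and *Krt18*, the pair that forms the filaments of simple epithelia, rose by 5.31 (SE 0.49) and 5.46 (SE 0.44). *Krt8* went from 78.7, 13.7 and 6.69 TPM to 928, 756 and 800.1 TPM and *Krt18* from 54.7, 8.97 and 5.04 TPM to 628, 650.3 and 703 TPM, with day 0 replicate 1 highest in both. *Krt19* rose by 3.02 (SE 0.60), the claudins *Cldn6* and *Cldn7*, of tight junctions, by 2.13 (SE 0.37) and 2.20 (SE 0.35), and *Krt7* by 1.68 (SE 0.36). *Cdh1*, the epithelial cadherin, fell from 123, 117 and 99.9 TPM to 48.1, 40.1 and 31.6 TPM (−1.5, SE 0.25), so that 6 of 10 epithelial genes rose and 1 fell. Without day 8 replicate 1, 2 were called lower, *Grhl2* being the second (−1.02). Of 5 trophoblast genes listed out of 10, *Cdx2* (5.46, SE 0.63), *Plac1* (5.17, SE 0.57) and *Gata3* (3.05, SE 0.39) rose and *Tfap2c* fell (−1.81, SE 0.27). *Cdx2*, at 97.4, 36.7 and 34.1 TPM on day 8, is also a gene of posterior mesoderm.

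Endoderm lists rose, with 1 exception. Of 11 extra-embryonic endoderm regulators, 9 rose (median 1.95), and the other 2, *Foxa3* (0.92, SE 0.25) and *Hhex* (0.60, SE 0.27), were not called. *Gata4* went from 13.0, 1.18 and 1.49 TPM to 47.8, 73.6 and 67.4 TPM (3.89, SE 0.71, adjusted p = 4.5e-05), *Gata6* from 11.8, 0.938 and 2.08 TPM to 36.8, 76.9 and 49.0 TPM (3.64, SE 0.76), and *Pdgfra*, a receptor of primitive endoderm and of mesenchyme, rose by 3.83 (SE 0.66). Day 0 replicate 1 lay above its partners in all 3. Without it, *Gata6* rose by 4.43 and *Sox17*, a further endoderm factor, by 4.36.

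Secreted proteins of visceral endoderm rose in 14 of 17 cases (median 2.59), and 9 of the 17 had a higher mean on day 4 than at both ends. Those means rested on uneven libraries, with *Afp* at 255, 20.2 and 76.7 TPM and *Apoa1* at 125, 17.3 and 39.4 TPM on day 4. *Ttr*, which carries thyroid hormone, went from 0.668, 0 and 0 TPM to 114, 104 and 64.5 TPM (6.29, SE 0.86, adjusted p = 7.8e-07). *Afp*, alpha-fetoprotein, was listed at 0 on day 0 and at 129, 20.4 and 49.2 TPM on day 8 (5.70, SE 0.99), and *Spink1*, a protease inhibitor, reached 252, 199 and 392 TPM (5.07, SE 0.97). *Apoe*, a lipid carrier abundant throughout, was at 831, 692 and 652 TPM and then at 1021, 1132 and 1272 TPM, which do not overlap although the difference of 0.66 (SE 0.30, adjusted p = 0.065) was not called. *Ttpa*, the tocopherol transfer protein, fell by 1.61 on the log2 scale. The 250 bases upstream of *Afp* (chr5:90490464-90490713, plus strand, RefSeq on GRCm38.p6) are shown since this gene was listed at 0 in every day 0 library and well above it in every day 8 library, with TATAAA and the letters GTTAAT, part of sites that HNF1 factors can bind, in capitals.
Afp: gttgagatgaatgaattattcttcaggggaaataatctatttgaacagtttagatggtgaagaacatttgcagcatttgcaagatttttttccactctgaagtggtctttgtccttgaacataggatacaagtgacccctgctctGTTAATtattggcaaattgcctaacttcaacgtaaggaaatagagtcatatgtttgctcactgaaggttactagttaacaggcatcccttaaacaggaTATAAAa

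GTTAAT lay 105 to 100 bases before the *Afp* start. It was found on either strand of 6.52% of all 27025 promoters, 3.63% of those of genes tested and 3.96% of those of genes called higher. Of the 13 secreted protein genes with an entry, 3 held it (*Afp*, *Apoc2* and *Fgb*).

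The endocytic and apical genes of visceral endoderm, which take up nutrients at its outer face, were the exception: of 8 listed, 2 rose and 1 fell, with a median of 0.33. *Dab2*, an endocytic adaptor, was at 58.2, 2.67 and 4.27 TPM on day 0 and at 70.7, 79.4 and 52.2 TPM on day 8. Its day 0 replicate 1 overlapped day 8, and its call (2.69, SE 0.88, adjusted p = 0.011) was lost without day 0 replicate 2 (adjusted p = 0.087) or replicate 3 (adjusted p = 0.063). *Slc13a4*, a sulphate transporter, rose by 2.15 (SE 0.26) and *Folr1*, a folate receptor, fell from 66.7, 28.0 and 56.2 TPM to 21.4, 19.7 and 12.9 TPM (−1.38, SE 0.43). *Cubn*, the cubilin receptor, was at 13.0, 0.441 and 1.14 TPM and then at 6.48, 2.71 and 2.23 TPM, which overlap. Of these 8 genes, 6 had a higher mean on day 4 than at both ends. The day 4 libraries were uneven, with *Dab2* at 208, 29.7 and 129 TPM and *Cubn* at 47.8, 5.29 and 26.9 TPM. The share of all genes with such a day 4 mean is not given here.

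Parietal endoderm and basement membrane genes rose in 8 of 14 cases (median 1.58). *Plat*, a plasminogen activator, rose from 2.17, 0.430 and 0.447 TPM to 12.8, 28.0 and 14.5 TPM (3.29, SE 0.42). *Col4a2*, a chain of basement membrane collagen, went from 65.9, 7.15 and 7.59 TPM to 111, 123 and 103 TPM (2.76, SE 0.82), *Pth1r*, a hormone receptor, rose by 2.69 (SE 0.60), and *Sparc*, a collagen-binding matrix protein, went from 297, 75.7 and 74.3 TPM to 555, 751 and 677 TPM (2.46, SE 0.51). Day 0 replicate 1 was the highest day 0 library for all 14 genes. Its *Srgn*, the core protein of a secreted proteoglycan, was at 92.9 TPM, above every other library of the comparison.

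**Figure D3:**
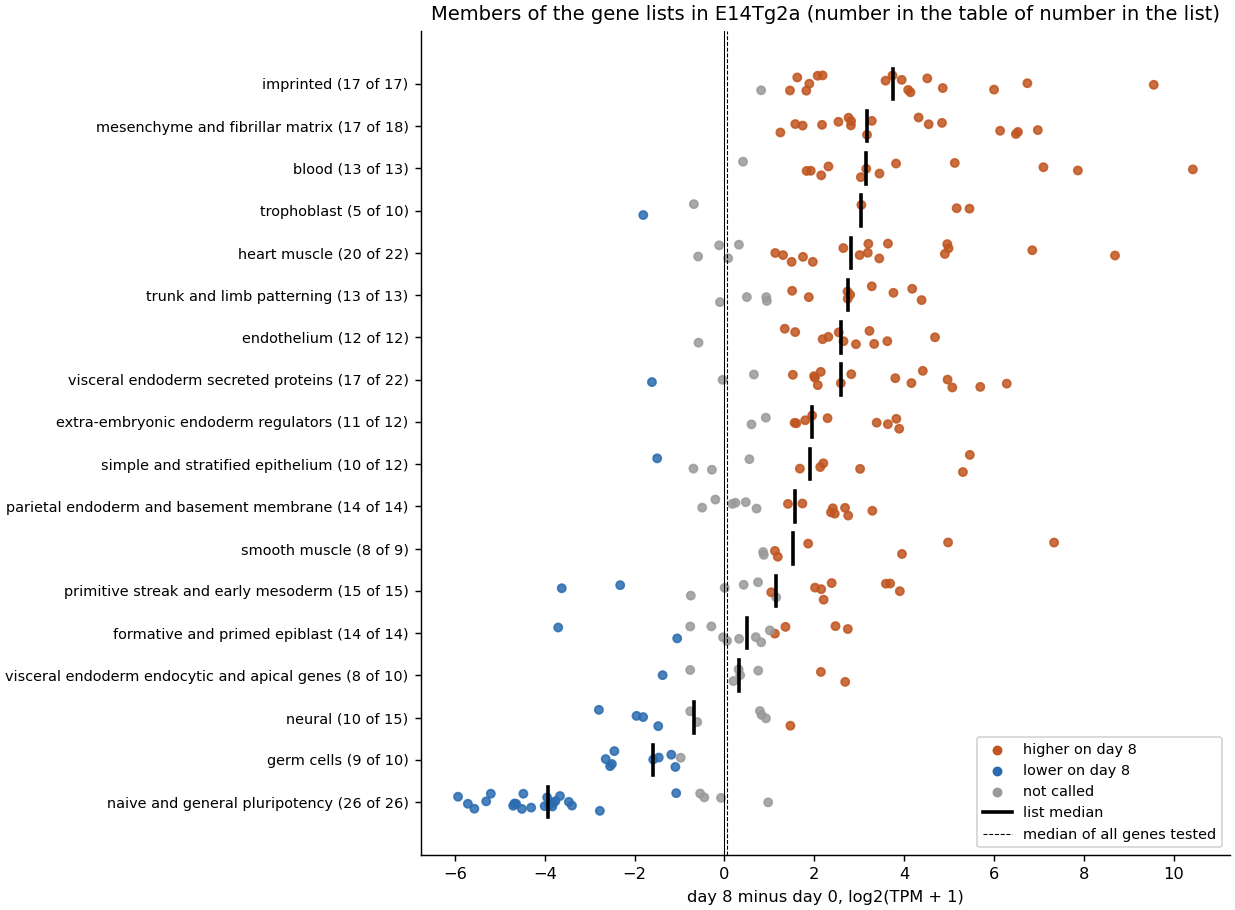
Day 8 minus day 0 difference (x axis, log2 of TPM + 1) of each member of the 18 gene lists (y axis, ordered by median), coloured by call, with a bar at the list median and a dashed line at the median of all genes, 0.05. The medians run from −3.93 for pluripotency to 3.74 for imprinted genes, and the naive pluripotency and germ cell lists hold no gene called higher.

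The largest losses began with *Mymx* and, among pluripotency genes, *Zfp42*. *Mymx*, which encodes a membrane micropeptide known from myoblast fusion (chr17:45600971-45602102), fell from 164, 181 and 221 TPM to 0.109, 1.70 and 1.77 TPM (−6.54, SE 0.37, adjusted p = 6.4e-13). *Zfp42*, the naive marker also called Rex1 (chr8:43295063-43306980), fell from 602, 712 and 669.9 TPM to 8.08, 14.5 and 7.99 TPM (−5.93, SE 0.30, adjusted p = 1.3e-13). *Nr0b1*, a nuclear receptor of the naive network, fell from 78.3, 70.4 and 104 TPM to 0.525, 0.753 and 0.543 TPM (−5.71, SE 0.31), and *Esrrb*, an orphan nuclear receptor of the same network, from 263, 258 and 224 TPM to 4.15, 6.59 and 2.68 TPM (−5.57, SE 0.28). Days 0 and 8 were far apart in all 4 genes, while *Mymx* was lower in day 8 replicate 1 than in its partners.

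Metabolic and other stem cell genes completed the list of losses. *Tdh*, the threonine dehydrogenase that feeds one-carbon metabolism in mouse stem cells, fell from 235, 286 and 254 TPM to 5.37, 5.93 and 4.14 TPM (−5.41, SE 0.20), the smallest adjusted p of the 24 genes, 5.4e-16. *Hsd17b14*, a hydroxysteroid dehydrogenase, fell by 5.44 (SE 0.32), *Khdc3*, an RNA-binding protein of oocytes and stem cells, by 5.41 (SE 0.41), and *Tcl1*, a coactivator of AKT, by 5.30 (SE 0.37). *Halr1*, a long noncoding RNA at chr6:52102949-52113684 beside the *Hoxa* cluster, fell from 79.7, 69.4 and 72.5 TPM to 0.0109, 1.11 and 0.0109 TPM (−5.85, SE 0.38). *Tdgf1-ps1*, a processed pseudogene, fell by 5.29 (SE 0.45) and its reads cannot be told apart with certainty from those of *Tdgf1*, which fell by 5.2 (SE 0.42).

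A pair of short noncoding genes among the losses was uneven. *Gm26083*, a small Cajal body RNA gene, was at 164, 298 and 523 TPM on day 0 and at 0, 79.0 and 0 TPM on day 8 (−6.10, SE 1.67, adjusted p = 0.0029). *Gm28625*, a long noncoding RNA gene by annotation, was at 141, 85.3 and 9.21 TPM and was then listed at 0 (−5.64, SE 1.19). Both have the largest standard errors of the 12 losses, and both averages on day 6 were above day 4, at 238 against 30.5 TPM and 47.8 against 3.05 TPM.

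Of the 26 pluripotency genes, 22 fell, none was called higher, and the median was −3.93. The call of *Dppa3* (−1.07, SE 0.38) was lost without day 0 replicate 1, day 8 replicate 1 or day 8 replicate 3, which left 21. *Nanog* (chr6:122707489-122714633), the factor whose upstream region the study deleted in its clones, fell from 326, 338 and 368 TPM to 34.6, 23.7 and 22 TPM (−3.66, SE 0.27, adjusted p = 3.8e-11), a fold of 12.9 between means of 344 ± 21.2 (SD, n = 3) and 26.7 ± 6.84 TPM (SD, n = 3). *Pou5f1* fell from 1602, 1631 and 2050 TPM to 215, 92.3 and 91.0 TPM (−3.83, SE 0.32) and *Sox2* from 305, 351 and 328 TPM to 22.7, 19 and 19.4 TPM (−3.95, SE 0.33). *Dppa5a*, an RNA-binding protein of stem cells and the most abundant member, fell from 6021, 4931 and 4844 TPM to 154, 327 and 238 TPM (−4.51, SE 0.32). The core genes thus fell less than *Zfp42*, *Nr0b1* and *Esrrb* on this scale, and all stayed above 10 TPM on average on day 8.

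Members of the list that did not fall were named after their values were seen. *Lin28a*, an RNA-binding protein that blocks let-7 maturation, was at 88.9, 64.5 and 62.0 TPM and then at 182, 103 and 146 TPM (0.97, SE 0.17, adjusted p = 1.9e-05), just short of the fold threshold. It was called higher without day 0 replicate 1 (1.13) or without day 8 replicate 2 (1.19). *Trim71*, itself a let-7 target, stood at 35.7 to 39.0 TPM on day 0 and at 30.5 to 42.4 TPM on day 8, and *Tbx3*, a T-box factor of naive cells and of mesoderm, also overlapped. *Sall4* was lower in each day 8 library but by 0.54 only.

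The 250 bases upstream of *Nanog* (chr6:122707239-122707488, plus strand) and *Zfp42* (chr8:43307010-43307259, minus strand) are shown, again from RefSeq on GRCm38.p6, because both genes fell and both windows hold TTTGCAT, the octamer letters that POU factors can bind, in capitals.
Nanog: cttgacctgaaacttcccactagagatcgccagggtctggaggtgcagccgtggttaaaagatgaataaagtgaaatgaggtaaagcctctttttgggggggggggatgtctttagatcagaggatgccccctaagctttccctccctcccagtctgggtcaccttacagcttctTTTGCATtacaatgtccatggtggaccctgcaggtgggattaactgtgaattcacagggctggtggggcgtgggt
Zfp42: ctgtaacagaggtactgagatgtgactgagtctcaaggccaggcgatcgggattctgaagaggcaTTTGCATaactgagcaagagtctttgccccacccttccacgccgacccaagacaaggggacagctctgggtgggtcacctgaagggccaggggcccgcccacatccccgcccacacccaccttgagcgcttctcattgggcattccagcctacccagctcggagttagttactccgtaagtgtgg

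TTTGCAT lay 75 to 69 bases before the *Nanog* start and 185 to 179 before that of *Zfp42*. On either strand it was found in 4.06% of all 27025 promoters and 3.09% of those of genes tested. It lay in 5.33% of the 1238 with an entry among genes called lower and 2.43% of the 1895 among genes called higher. *Sox2* was the third of the 17 pluripotency genes with an entry to hold it. These shares are a description and were not tested.

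Germ cell genes, several of which naive stem cells express, fell in 8 of 9 cases (median −1.59). *Dazl*, an RNA-binding protein of germ cells, fell from 13.2, 6.19 and 4.60 TPM to 0.251, 0.387 and 0.347 TPM (−2.64, SE 0.38), *Mael*, of the piRNA pathway, by 2.55 (SE 0.34), and *Ddx4*, a helicase, from 11.7, 15.2 and 13.4 TPM to 1.13, 2.01 and 1.52 TPM (−2.51, SE 0.21). *Sycp3*, a component of meiotic chromosome axes and the most abundant member, fell by 1.59 (SE 0.32). All 9 had every day 8 library below day 0, as did 4463 of all 16336 genes. Without day 0 replicate 1, 7 were called, the call of *Taf7l* being lost, as it also was without day 0 replicate 3, where its difference was −0.99.

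Of 10 neural genes listed out of 15, 1 rose and 4 fell, with a median of −0.68. With a pseudocount of 0.1 TPM, 4 were called higher, without day 8 replicate 3, 2 were, and with a minimum of 5 TPM, 2 were called lower. *Stmn2*, a microtubule regulator of neurons, was at 241, 207 and 259 TPM in the undifferentiated libraries and at 35.6, 23.0 and 43.6 TPM on day 8 (−2.80, SE 0.39), and *Sox1*, a factor of neural progenitors, fell from 2.29, 5.21 and 5.79 TPM to 0.426, 0.0753 and 0.543 TPM (−1.96, SE 0.53). *Elavl3*, a neuronal RNA-binding protein, fell by 1.81 (SE 0.24). *Nes*, the filament protein nestin, which muscle and vessel precursors also express, rose from 11.1, 3.75 and 2.61 TPM to 24.9, 12.6 and 11.4 TPM (1.47, SE 0.46), and this call was lost without day 8 replicate 1 or day 0 replicate 3.

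The 2 ends of the course hide genes that came and went. Of 14 formative and primed epiblast genes, 4 rose, 2 fell and 8 were not called, with a median of 0.51. Without day 0 replicate 1 or without day 8 replicate 2, 1 gene in place of 2 was called lower, the call of *Zic5* being lost. That of *Sox3* (1.12, SE 0.35) was lost without day 0 replicate 2 or day 8 replicate 1, which left 3 called higher. Of the 14 genes, 13 had a higher mean on day 6 than at both ends. *Dnmt3b*, a de novo DNA methyltransferase, was at 87.2, 26.9 and 34.0 TPM on day 0 and at 73.0, 31.0 and 40.1 TPM on day 8, but averaged 369.6 TPM on day 4. *Otx2* averaged 18.3, 143, 61.1 and 10.9 TPM on days 0, 4, 6 and 8. *Dnmt3l*, the catalytically inactive partner of these enzymes, fell from 250.1, 112 and 153 TPM to 10.7, 10.4 and 13.9 TPM (−3.70, SE 0.41), whereas *Lef1*, a nuclear effector of WNT (2.75, SE 0.35), and *Sall2*, a zinc finger factor (2.47, SE 0.33), rose.

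Primitive streak genes rose in 8 and fell in 2 of 15 cases (median 1.15), and 13 of 15 had their higher mean on day 6. *Evx1*, a homeobox gene of the posterior streak, went from 0.307, 0.0772 and 0.0218 TPM to 30.7, 10.1 and 12.7 TPM (3.90, SE 0.57), and *Fgf8*, a ligand of the streak, reached 51.5, 6.56 and 28.7 TPM (3.69, SE 0.56). *T*, brachyury, averaged 218 TPM on day 6 and stood at 44.9, 1.46 and 4.09 TPM on day 8 (2.39, SE 0.80, adjusted p = 0.013). The number called rested on single libraries. Without day 8 replicate 1, *T* differed by 1.16 (adjusted p = 0.18), *Mixl1* by 0.92, *Mesp1* by 1.26 and *Gsc* by 0.73, and 4 genes in place of 8 were called higher. Without day 0 replicate 3, 5 were, with the calls of *T* (adjusted p = 0.053), *Gsc* (adjusted p = 0.096) and *Mixl1* lost. The call of *Mixl1* was lost without any 1 of the day 0 libraries (adjusted p = 0.063 to 0.069). *Lefty2*, a Nodal antagonist, and *Nodal* itself, both expressed in stem cells, fell, *Lefty2* from 59.2, 54.6 and 43.3 TPM to 7.06, 2.81 and 1.59 TPM (−3.62, SE 0.29).

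**Figure D4:**
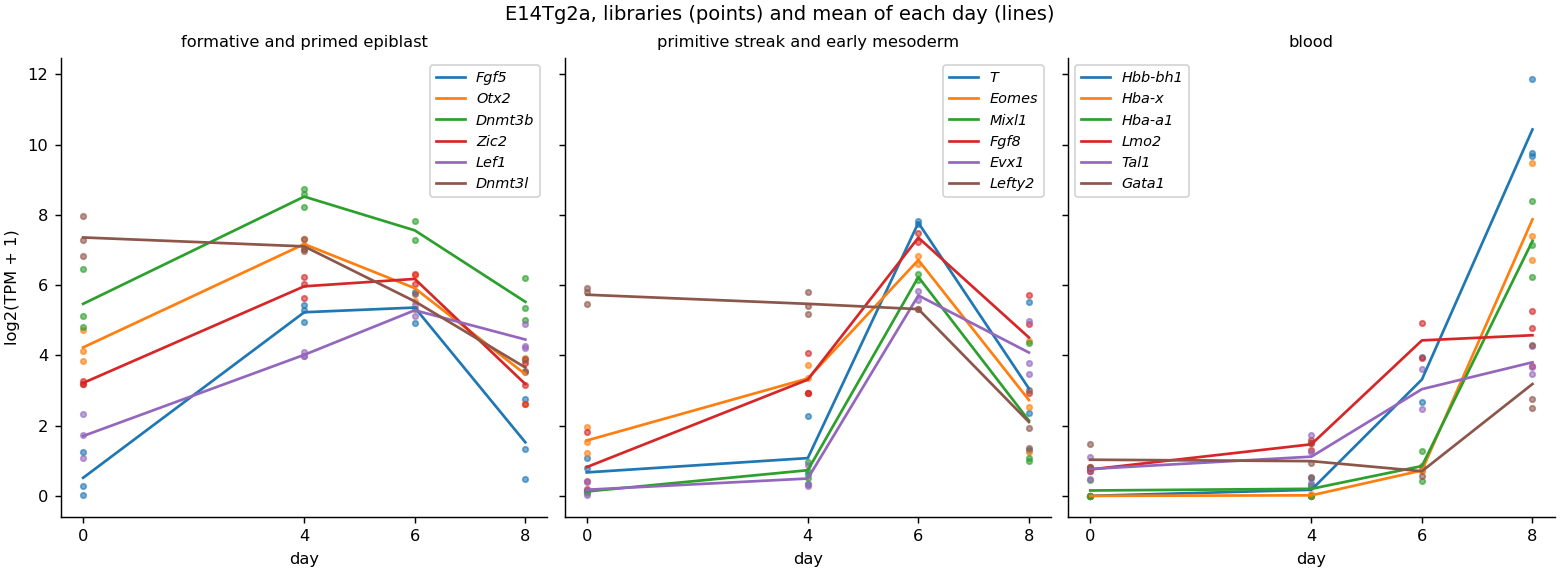
Level (y axis, log2 of TPM + 1) of 6 genes from each of 3 lists on days 0, 4, 6 and 8 (x axis), with a point per library and a line through the mean of each day. *Otx2*, *Dnmt3b* and *Zic2* return by day 8 to near their day 0 level after days 4 and 6, *T* and *Eomes* peak on day 6 with day 8 libraries spread out, and the globins rise between days 6 and 8.

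In all, 46 genes with an adjusted p at or above 0.05 between days 0 and 8 had a mean TPM + 1 on day 4 or day 6 over 4 times that at both ends. *Zic2* averaged 8.28, 62.4, 71.6 and 8.57 TPM on days 0, 4, 6 and 8, and *Fgf5*, the growth factor of the primed epiblast, 0.530, 36.8, 42.0 and 2.57 TPM. *Pim2*, a serine/threonine kinase named after its values were seen, averaged 20.2, 290, 205 and 19.7 TPM. Blood and mesenchyme genes had no member with a higher mean on day 4 or day 6 than at both ends.

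**Figure D5:**
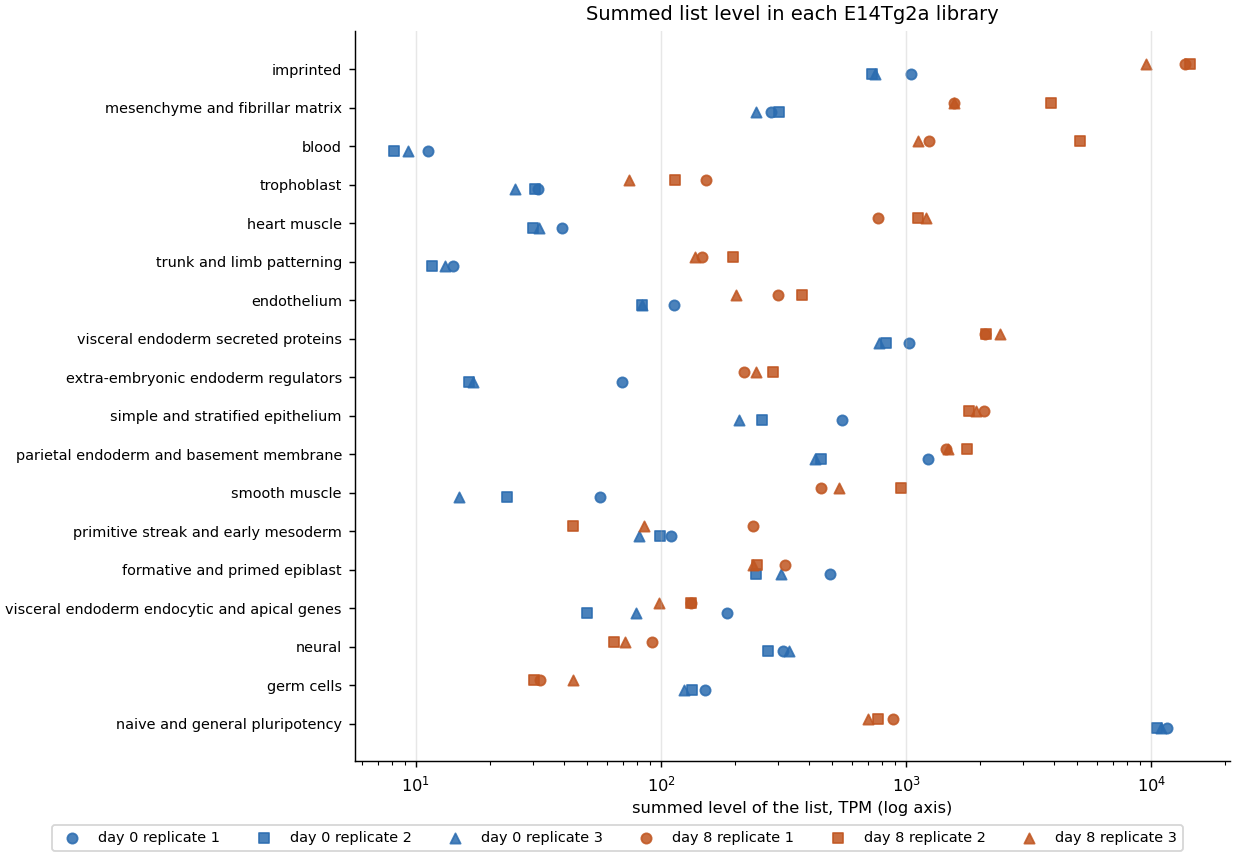
Summed TPM of each list (x axis, log scale) in each of the 6 libraries; colour marks the day and shape the replicate. Days 0 and 8 are apart for most lists, but the streak, formative and endocytic lists overlap between days, day 0 replicate 1 lies to the right of its partners in the endoderm lists, and day 8 replicate 2 in blood (5104 TPM) and mesenchyme (3885 TPM).

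At the top of the abundance order little was exchanged. The 100 transcripts with the highest mean level shared 89 members between days, and 63 of them on day 0 and 65 on day 8 were cytosolic ribosomal proteins. On day 0 the order was led by *Ptma*, a nuclear acidic protein, at 5738, 6763 and 8199 TPM, followed by *Rps18*, *Rps21*, *Rps2*, *Rpl23a*, *Rplp1*, *Gapdh*, *mt-Atp6*, *Rps14* and *Rps24*. On day 8 it was led by *Rps14* at 6976, 6858 and 11420 TPM, followed by *Rpl23a*, *Rps24*, *Rpl13a*, *Rps2*, *Rps27*, *Gm10076*, *Gm28437*, *Rplp1* and *Tpt1*. *Gm10076* is annotated as a long noncoding RNA and *Gm28437* as an unprocessed pseudogene, and reads of such genes can be shared with other copies. None of these 15 transcripts was called, and neighbours in either order differed by less than the larger of their standard deviations over libraries.

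In TPM rather than on the log scale, the 6 largest gains were *Igf2* (from a mean of 5.96 to 4007 TPM), *H19* (32.2 to 2816 TPM), *Rps14* (6150 to 8418 TPM), *Hbb-bh1* (0 to 1803 TPM), *Gm10076* (4038 to 5797 TPM) and *Tpt1* (3868 to 5561 TPM). The days overlapped for *Rps14*, *Gm10076* and *Tpt1*, and *Rps14* was highest in day 8 replicate 3, at 11420 TPM. The 6 largest losses were *Dppa5a* (5265 to 239.7 TPM), *Hsp90aa1* (3986 to 1224 TPM), *Ptma* (6900 to 5117 TPM), *mt-Atp6* (6342 to 4592 TPM), *Gapdh* (6343 to 4658 TPM) and *Pou5f1* (1761 to 133 TPM). Among these only *mt-Atp6* overlapped between days, at 5253, 6276 and 7497 TPM and then at 5401, 3723 and 4651 TPM. *Hsp90aa1*, a heat shock chaperone, was at 3434, 3779 and 4746 TPM and then at 1354, 1173 and 1146 TPM (−1.69, SE 0.13, adjusted p = 1.3e-10). *Dppa5a* ranked 17 on day 0 and 576 on day 8, and *Igf2* went from rank 9554 to rank 26, *H19* from 4160 to 56.

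Shares of the listed TPM were compared by an exact test whose p cannot go below 0.1 with 3 against 3 libraries. The 100 most abundant transcripts of each library held 35.1%, 36.3% and 37.3% on day 0 and 33%, 31.8% and 36.5% on day 8. The difference was −2.43 percentage points (two-sided exact permutation test, p = 0.3). Transcripts of 89 cytosolic ribosomal protein symbols held 25.8% ± 1.07 (SD, n = 3) and 24.7% ± 2.67 (SD, n = 3) by the same exact test (p = 0.5). The 13 transcripts encoded in mitochondria held 3.49%, 3.53% and 3.46% and then 3.29%, 2.48% and 2.41%, lower in all day 8 libraries (exact permutation p = 0.1, the smallest that 3 against 3 libraries allow). Of the ribosomal protein symbols, none was called higher and 4 were called lower, *Rpl10l*, *Rpl39l*, *Rpl3l* and *Rps4l*, all paralogues of standard subunits and named after their values were seen.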

How the data were processed

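Poly-A RNA of E14Tg2a cells was sequenced as stranded paired-end libraries. According to the methods, the authors mapped reads to mm10 with STAR and estimated levels with RSEM, and the deposited table holds TPM per gene for genes above 1 TPM in at least 1 group mean, without libraries that stood apart in their own principal component analysis. Tool versions are not given in the sources used here. TPM keep no sequencing depth, so depth is unknown and no counting interval is given. The 6 libraries held 994979 to 998266 listed TPM and 13262 to 13905 genes at 1 TPM or more. A further 22 columns with the authors' own fold changes and adjusted p-values (DESeq) were not used.

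Values were analysed as log2(TPM + 1), which understates changes of low genes, with limma 3.58.1 in R 4.3.3 (a mean per line and day over all 33 libraries, intensity trend) and Benjamini-Hochberg adjustment over 16336 genes. A gene was called with an adjusted p under 0.05 and a log2 difference over 1 in either direction. For shares of TPM, a two-sided exact permutation test was run over the 3 libraries of each day. Named genes were the 12 largest called gains and 12 largest losses without overlap between days, the 10 most abundant genes of each day, the 6 largest gains and losses in TPM, up to 4 members per list (the 3 largest differences and the most abundant member) and *Nanog*; other genes were singled out after their values were seen. Members and lists were chosen with earlier results of these data known. Of the 264 listed genes, 239 were in the table. Gene positions are from GENCODE M21 (GRCm38), which matched 98.6% of the genes, and upstream sequences from RefSeq (GRCm38.p6), 250 bases before the first listed start, held for 11453 of the genes tested. The fit was tested on simulated data. Python 3.11.15 drew the figures.

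Same-numbered libraries of days 0 and 8 correlated at 0.136, 0.0764 and 0.0341 in their deviations from the group means over 10538 genes. Some items that the rule for named genes covers are not reported here.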

Additional observations from a re-analysis of the deposited data

Results flagged for a closer look

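The change from day 0 to day 8 was set against that of the 2 clones in the same limma fit, as the mean change of the clones minus that of E14Tg2a (log2 of TPM + 1, 3 libraries per line and day, adjusted p over all genes). Of the 24 genes with the largest changes, 9 differed between the lines, where 6.30% of all genes did. The 24 were chosen for the size of their E14Tg2a change, which is also 1 side of this difference, so the choice favours finding one. The 9 of 24 therefore cannot be read as an excess over the 6.30%. All 12 gains and all 12 losses were smaller in the clones, a direction that the choice favours too.

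Gains were smaller in the clones for the globins *Hbb-bh1* (−4.78, SE 1.44, adjusted p = 0.047), *Hba-x* (−4.49, SE 1.29, adjusted p = 0.037) and *Hba-a1* (−4.27, SE 1.10, adjusted p = 0.022). Day 8 means of *Hbb-bh1* were 495 TPM in dK9.1 and 74.6 TPM in dK9.2, against 1803 TPM in E14Tg2a. The same held for *Col1a1* (−2.40, SE 0.52, adjusted p = 0.0087) and *Igfbp5* (−2.69, SE 0.70, adjusted p = 0.023). Without day 8 replicate 2 of E14Tg2a, the library with the most globin and matrix RNA, none of these 5 gains passed the test (adjusted p from 0.054 for *Col1a1* to 0.19 for *Hbb-bh1*), while the differences were −4.07 for *Hbb-bh1*, −3.68 for *Hba-x*, −3.71 for *Hba-a1*, −1.96 for *Col1a1* and −2.18 for *Igfbp5*. The 2 of the 9 genes that still passed were *Zfp42* and *Tdh*. Over the 6 fits that each left out 1 E14Tg2a library, the difference passed in 1 for *Hbb-bh1*, 2 for *Hba-x*, 4 for *Hba-a1*, 5 for *Col1a1* and 3 for *Igfbp5*. With a pseudocount of 0.1 TPM it was lost for *Hbb-bh1* (adjusted p = 0.072), *Hba-x* (0.074), *Hba-a1* (0.072) and *Col1a1* (0.10) and held for *Igfbp5* (0.039).

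Losses were smaller in the clones for *Mymx* (1.65, SE 0.45, adjusted p = 0.029), *Zfp42* (1.33, SE 0.37, adjusted p = 0.032), *Tdgf1-ps1* (1.89, SE 0.55, adjusted p = 0.041) and *Tdh* (2.03, SE 0.24, adjusted p = 7.9e-05). *Tdh* averaged 17.4 TPM in dK9.1 and 12.7 TPM in dK9.2 on day 8, against 5.14 TPM in E14Tg2a. On day 0 it averaged 152 TPM in dK9.1 and 169 TPM in dK9.2, against 258 TPM in E14Tg2a. A lower start in the clones is thus part of its difference. *Mymx* (129 and 147 against 189 TPM) and *Tdgf1-ps1* (144 and 198 against 232 TPM) also started lower, and *Zfp42* (669 and 675 against 661 TPM) did not. *Tdh* alone of the 9 differed whichever of the 6 libraries was left out. The difference passed in 2 of these 6 fits for *Mymx*, 2 for *Zfp42* and 1 for *Tdgf1-ps1*, whose adjusted p reached 0.20. With a pseudocount of 0.1 TPM that of *Mymx* was lost (adjusted p = 0.054) and those of *Zfp42*, *Tdgf1-ps1* and *Tdh* were held.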

How the results depend on the processing

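Genes called numbered 1974 to 3227 higher and 1209 to 2431 lower over the alternatives run, and no called gene changed direction. The lowest counts came with a minimum of 5 TPM, under which fewer genes were tested, and the highest with a pseudocount of 0.1 TPM. Leaving out 1 library gave 2399 to 2827 higher and 1685 to 1922 lower. The fit without both day 0 replicate 1 and day 8 replicate 2, chosen after seeing the data, gave 2607 and 1700. *Nanog* ranged from −3.54 to −3.86 and kept its call throughout, as did the 24 genes with the largest changes. Whether replicate numbers pair the libraries was not settled, and they were treated as numbers only: same-number correlations were positive but not all passed 0.1, and day 0 replicate 3 and day 8 replicate 3 correlated better with other numbers. The replicate block gave 2600 higher and 1800 lower, and 10 genes in place of 9 differing from the clones; of the list members it changed the call of *Eomes* only. The number differing from the clones was 5 with a pseudocount of 0.1 TPM and 2 to 9 when 1 library was left out (3 without day 0 replicate 2, 2 without day 0 replicate 3 and 2 without day 8 replicate 2); the cause was not tested. The share in the most abundant transcripts differed by −0.392 percentage points for 20 transcripts (exact permutation p = 0.6) in place of −2.43 for 100. Median-ratio rescaling moved the median of all genes by −0.03. With the 6 compared libraries alone, *Dab2*, *Dcn*, *Des*, *T*, *Mixl1*, *Mesp1* and *Nes* lost their calls. Depth is unknown, so low levels carry an unknown counting error.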
